A study of Mus musculus with 18 samples.

Results

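The proteasome subunits are described here in mouse kidney, across 4 groups of mice that differed in age and in the gene Aprt. The members were all probe sets whose single gene symbol in the platform annotation began with Psma, Psmb, Psmc, Psmd or Psme, without Psmb8, Psmb9 and Psmb10. That gave 50 of 12488 probe sets, from 39 of the 8251 genes that have a single-symbol probe set. A probe set is a group of short array probes read together as a single signal. Of these, 42 probe sets from 36 genes had a mean signal of at least 118.6 and were tested, as did 62.4% of the other probe sets with a single symbol. The prefix also takes in Psmc3ip, a cofactor of meiotic recombination, and Psme3ip1, a protein that binds Psme3, and neither is a subunit. Without both there were 48 probe sets from 37 genes, of which 41 probe sets from 35 genes were tested. Both Psme2 probe sets carried several symbols and were not named.

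The study asked how loss of Aprt, the enzyme that salvages adenine, alters kidney gene expression at different ages. When it is missing, adenine is turned into a compound that dissolves poorly and crystallises in the kidney. Each of the 18 arrays held total kidney RNA of strain C57 and carries its own mouse number, sex and littermate in the labels. Per the labels, the groups were 3 Aprt KO mice of 1 month, 3 control mice of 1 month, 6 Aprt KO mice of 7 days and 6 control mice of 7 days. The series text gives the KO as Aprt-/- and the controls as Aprt+/+. Every KO mouse had a control littermate of the same sex, which made 9 litter pairs. How the allele was made and how arrays were batched is not stated in the labels, so p-values measure the spread between these arrays.

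The proteasome is the chamber in which the cell degrades proteins that carry ubiquitin chains. Its 20S core has outer alpha rings (Psma genes), which gate the entry, and inner beta rings (Psmb genes), which cut. The 19S cap holds a ring of ATPases (Psmc genes) that unfolds the substrate, together with ubiquitin receptors, a deubiquitinase and scaffold subunits (most Psmd genes), while the Psme genes encode other activators of the core. Because the subunits are built into a particle of fixed make-up, their genes are known for rising and falling together, through the transcription factor Nfe2l1 in mammals.

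The signals are intensities on a linear scale and were tested as log2(signal + 29). The added 29 shrinks fold changes of genes with low signals, and levels of different probe sets were not compared. All 10 genes listed as kidney tubule markers passed the filter, and their summed signal was 80558 to 102839 in 1-month arrays labelled Aprt KO, 79628 to 111403 in 1-month controls, 39070 to 58622 in 7-day arrays labelled Aprt KO and 49900 to 73212 in 7-day controls. The Xist and Y-linked signals matched the labelled sex on 18 of 18 arrays. The 3 Aprt probe sets were dim. On 4 arrays the brightest of them went against the label, lying nearer to the opposite genotype's median at that age, namely 1-month Aprt KO 1, 7-day Aprt KO 4 and 7-day controls 1 and 2. Its signal was 52.3 to 86.5 in 1-month arrays labelled Aprt KO, 103.9 to 109.5 in 1-month controls, 41.9 to 135.4 in 7-day arrays labelled Aprt KO and 51.3 to 148.2 in 7-day controls. Both arrays of litter pair 4 had maximum signals of 10167 and 10767, while all others reached at least 25718. Each group has only 3 or 6 arrays, and this number limits the precision.

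**Figure D1:**
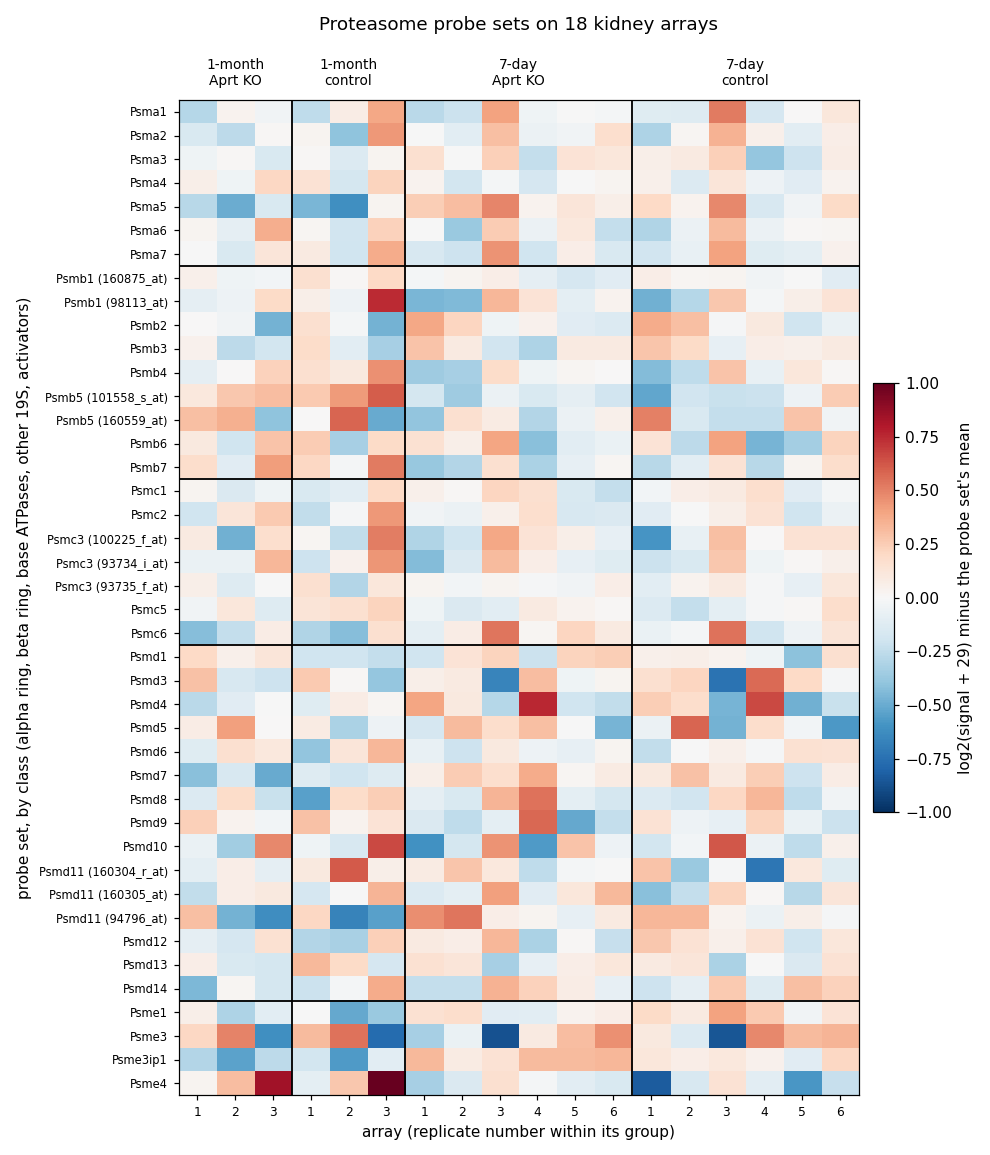
Colours show log2(signal + 29) of each tested proteasome probe set (rows, grouped by class) on each of the 18 arrays (columns, by group), minus that probe set's mean over all arrays. The column of 1-month control 3 is red for many rows, and Psma5, Psmd7 and Psme3ip1 are mostly blue at 1 month and red at 7 days.

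No proteasome probe set was called between the genotypes at either age. At 1 month the log2 fold changes of Aprt KO over control ran from -0.30 to 0.34 with a median of -0.04, against a median of -0.00 over all 7464 tested probe sets. At 7 days they ran from -0.14 to 0.19 with a median of -0.02, against -0.01 over all tested. A probe set was called at a Benjamini-Hochberg adjusted p under 0.05 in limma, a linear model fitted across all tested probe sets with a term for each group and a sex term at each age. By that rule 0 of 42 proteasome probe sets were called at 1 month, where 0.201% of all tested probe sets were called (0.188% higher and 0.0134% lower), and 1 of the 42 had an unadjusted p under 0.05 (background 4.39%). At 7 days 0 of 42 were called, where 2.73% of all were (2.25% higher and 0.482% lower), and 0 had an unadjusted p under 0.05 (background 9.65%). In bulk tissue, fewer cells of a type and less RNA per cell cannot be told apart.

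Each interval gives the effect sizes that the fit leaves possible for 1 probe set on its own, without a term for the litter pair. At 1 month the 95% interval of the log2 fold change lay within ±0.5 for 25 of the 42 probe sets (59.5%, against 38.5% of all tested). It lay within ±1 for 42 of 42 (91.9% of all tested). At 7 days it lay within ±0.5 for 37 of 42, which is 88.1% against 68.6% of all tested probe sets. Within ±1 it lay for 42 of 42 (95.8% of all tested). The widest interval among members at 7 days was that of Psme3, from -0.64 to 0.42. The change of the genotype effect with age, as the 1-month effect minus the 7-day effect, was called for 0 of 42 members by limma (background 0.375%, of which 0.134% higher and 0.241% lower), and 0 had an unadjusted p under 0.05 (background 5.0%). Its values ran from -0.47 to 0.31. Without the 4 arrays on which Aprt went against the label, the counts of called members were again 0 in these 3 comparisons. The shares of all tested probe sets called were then only 0.0402% at 1 month, 1.5% at 7 days and 0.0804% for the interaction.

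**Figure D2:**
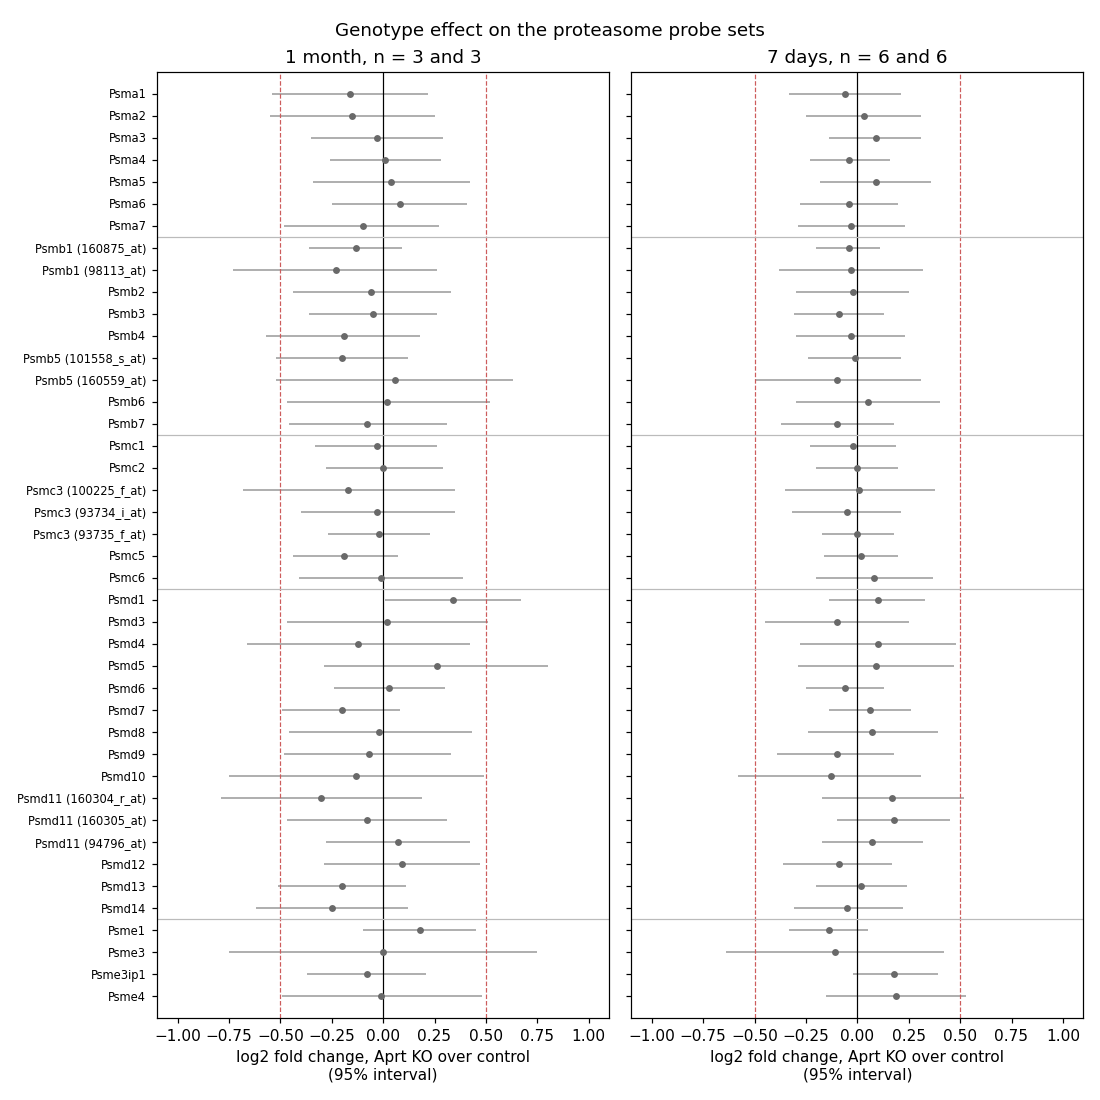
Points show the log2 fold change of Aprt KO over control for each tested proteasome probe set at 1 month (left) and at 7 days (right), with bars for the 95% interval of the limma fit and dashed lines at ±0.5. Apart from Psmd1 at 1 month, whose interval runs from 0.01 to 0.67, the intervals include 0.

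No class of subunits held a genotype call. The 7 alpha subunits had median log2 fold changes of -0.03 at 1 month and -0.03 at 7 days. The 9 probe sets of beta subunits had medians of -0.08 and -0.03, the 7 probe sets of base ATPases -0.03 and 0.00, the 15 of the other Psmd genes -0.07 and 0.06, and the 4 of activators (Psme3ip1 included) -0.00 and 0.04, in each case 1 month first.

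The genotype groups were fully separated for 2 of the 42 tested members at 1 month (4.76%, background 6.08%) and for 0 at 7 days (background 2.49%). Psmd1, the large scaffold of the 19S base, read 1908, 1722 and 1809 in 1-month arrays labelled Aprt KO, against 1439, 1440 and 1403 in 1-month controls. Every KO array was above every control array. The log2 fold change was 0.34 (SE 0.16), with an adjusted p of 1.0 in limma. At 7 days Psmd1 ran from 1426 to 1977 (median 1885) in arrays labelled Aprt KO and from 1241 to 1855 (median 1711) in controls, and the groups overlapped. Psmc5, an ATPase of the base, read 866.3, 961.9 and 810.0 in 1-month arrays labelled Aprt KO, against 973.7, 996.8 and 1042 in 1-month controls. Here every KO array was below every control array, by a log2 fold change of -0.19 (SE 0.12, limma adjusted p 1.0). The gene's other probe set, too dim to be tested, was separated the other way. It read 33.8, 36.3 and 36.2 in 1-month arrays labelled Aprt KO, against 28.7, 33.0 and 14.4 in 1-month controls.

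The catalytic subunits were measured in each group. Psmb6, which cuts after acidic residues, read 2725, 2210 and 3106 in 1-month arrays labelled Aprt KO, 3040, 2015 and 2915 in 1-month controls, 1894 to 3351 (median 2541) in 7-day arrays labelled Aprt KO and 1841 to 3379 (median 2462) in 7-day controls. All 4 groups overlapped. Psmb7, which cuts after basic residues, read 2150, 1757 and 2554 in 1-month arrays labelled Aprt KO, 2194, 1880 and 2745 in 1-month controls, 1459 to 2129 (median 1672) in 7-day arrays labelled Aprt KO and 1565 to 2149 (median 1854) in 7-day controls. These groups overlapped too. The log2 fold changes of Psmb7 for 1 month over 7 days, 0.31 (SE 0.16) in mice labelled Aprt KO and 0.28 (SE 0.16) in controls, did not pass the test (limma adjusted p 0.154 and 0.186). Psmb5, which cuts after hydrophobic residues, is described with the effect of age.

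The inducible subunits Psmb8, Psmb9 and Psmb10 take the places of Psmb5, Psmb6 and Psmb7 in the immunoproteasome, which interferon induces. Psmb8 read 306.9, 422.9 and 380.7 in 1-month arrays labelled Aprt KO, 257.1, 217.8 and 316.7 in 1-month controls, and 512.5 to 581.2 in all 7-day arrays labelled Aprt KO. In the 7-day controls it read 262.7 to 356.5 on 5 arrays and 2727 on control 3. That array also read 1052 for Psmb9, where the other 7-day controls read 27.4 to 108.0, and 1337 for Psmb10, where they read 457.3 to 622.1. With all arrays, the 7-day log2 fold change of Psmb8 was 0.29 (SE 0.39, limma adjusted p 0.999), and without control 3 it was 0.82 (SE 0.11, adjusted p 0.000199). Without that array Psmb10 rose by 0.39 (SE 0.10, limma adjusted p 0.0494) and Psmb9 differed by 0.77 (SE 0.22, adjusted p 0.0715). Control 3 was singled out after its high values were seen, so the p-values without it are descriptive only. Of 36 alternative settings, Psmb8 gained a call in 1, the one without control 3. Without the 4 arrays on which Aprt went against the label, the Psmb8 value was -0.06 (SE 0.48).

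Among the other proteasome probe sets, 0 of 42 were called by limma at 7 days also without control 3 (background 3.12%), and 0 had an unadjusted p under 0.05 (background 10.7%). The summed signal of 14 probe sets for myeloid genes, which are rich in immune cells, was 8982 to 13381 in 7-day arrays labelled Aprt KO and 4078 to 6843 in 7-day controls, and 12 of the 14 were called higher. With all arrays, 2.25% of all tested probe sets were called higher. Their part in the Psmb8 and Psmb10 values was not tested.

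**Figure D3:**
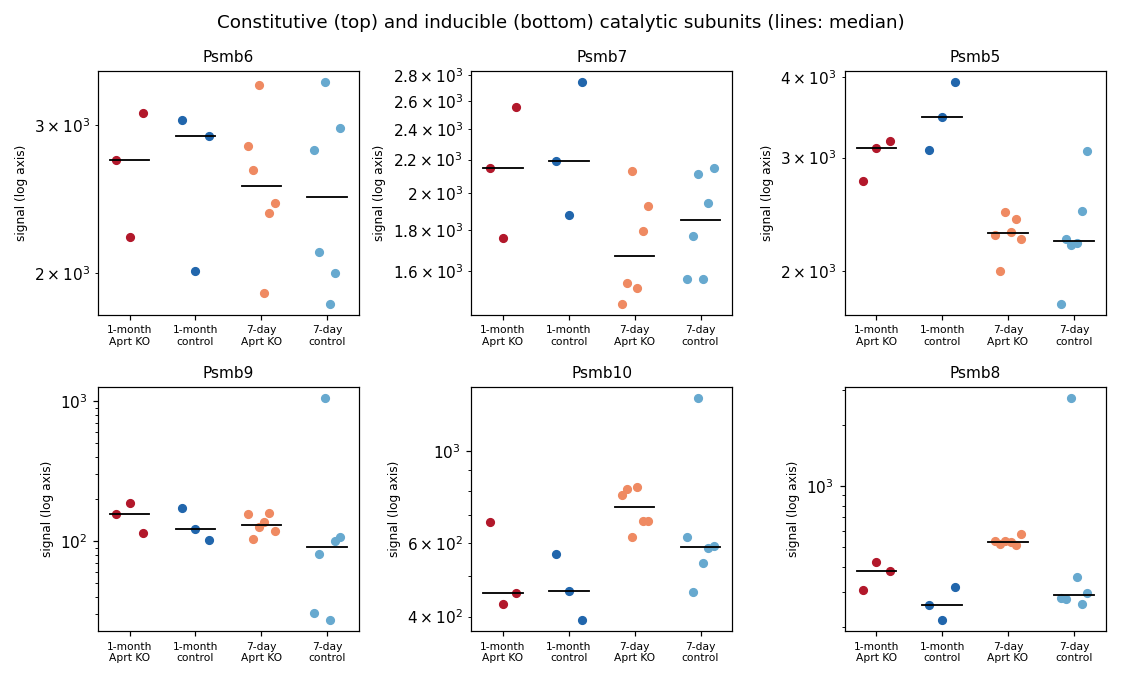
Points show the signal (log axis) of the catalytic subunits Psmb6, Psmb7 and Psmb5 (top) and of their inducible counterparts Psmb9, Psmb10 and Psmb8 (bottom) on each array by group, with lines at group medians. The inducible subunits have a single high array among 7-day controls, at 1052, 1337 and 2727, which the standard subunits lack.

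Age changed few proteasome genes, although it changed much of the kidney transcriptome. In mice labelled Aprt KO, 4 of 42 proteasome probe sets were called between 1 month and 7 days, while 37.8% of all tested probe sets were. In controls it was 5 of 42, or 11.9%, while 38.3% of all were. At an unadjusted p under 0.05 the members numbered 6 in mice labelled Aprt KO (background 45.6%) and 7 in controls (background 45.9%). In controls the log2 fold change exceeded 0.5 in size for 2 members, or 4.76%, and for 35.0% of all tested probe sets. The members' median was -0.00 in mice labelled Aprt KO and 0.02 in controls, against -0.12 and -0.11 over all tested probe sets.

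Of the 10 tubule markers, 9 rose with age in mice labelled Aprt KO (background 14.0%) and 7 in controls (background 13.7%). Of 14 myeloid probe sets, 10 fell and 0 rose in mice labelled Aprt KO (background 23.8% and 14.0%). In controls 1 fell and 1 rose (background 24.6% and 13.7%). The part of either marker set in the age effects of the proteasome genes was not tested.

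How many of the calls were rises and how many falls depended on how the arrays were scaled, for the members as for all probe sets. With the signals as deposited, 1 member rose and 3 fell in mice labelled Aprt KO (background 14.0% and 23.8%), and 2 rose and 3 fell in controls (background 13.7% and 24.6%). With each array centred on its median, 6 members rose and 1 fell in mice labelled Aprt KO (background 23.2% and 13.5%), and 9 rose and 0 fell in controls (background 22.7% and 14.6%). That centring moved the median of all tested probe sets to 0.11 in both genotypes, and the members' median to 0.23 and 0.24. Centring on the 75th percentile gave 2 rises and 2 falls in mice labelled Aprt KO (background 18.2% and 17.6%), and 5 rises and 0 falls in controls (background 18.9% and 17.9%). Quantile normalization gave 0 rises and 6 falls in mice labelled Aprt KO (background 16.4% and 18.5%), and 3 of each in controls (where 1195 and 1418 of the 7464 tested probe sets did). Relative to the median of all tested probe sets, the members' median was 0.12 higher in both genotypes as deposited. Either centring shifts all probe sets of an array alike, so it cannot change this difference. After quantile normalization the difference was -0.03 in mice labelled Aprt KO and -0.01 in controls. Without the 4 arrays on which Aprt went against the label, the limma calls numbered 0 in mice labelled Aprt KO (background 19.1%), with 3 at an unadjusted p under 0.05 (background 31.0%), and 2 in controls, Psmb5 and Psme1 (background 32.2%).

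**Figure D4:**
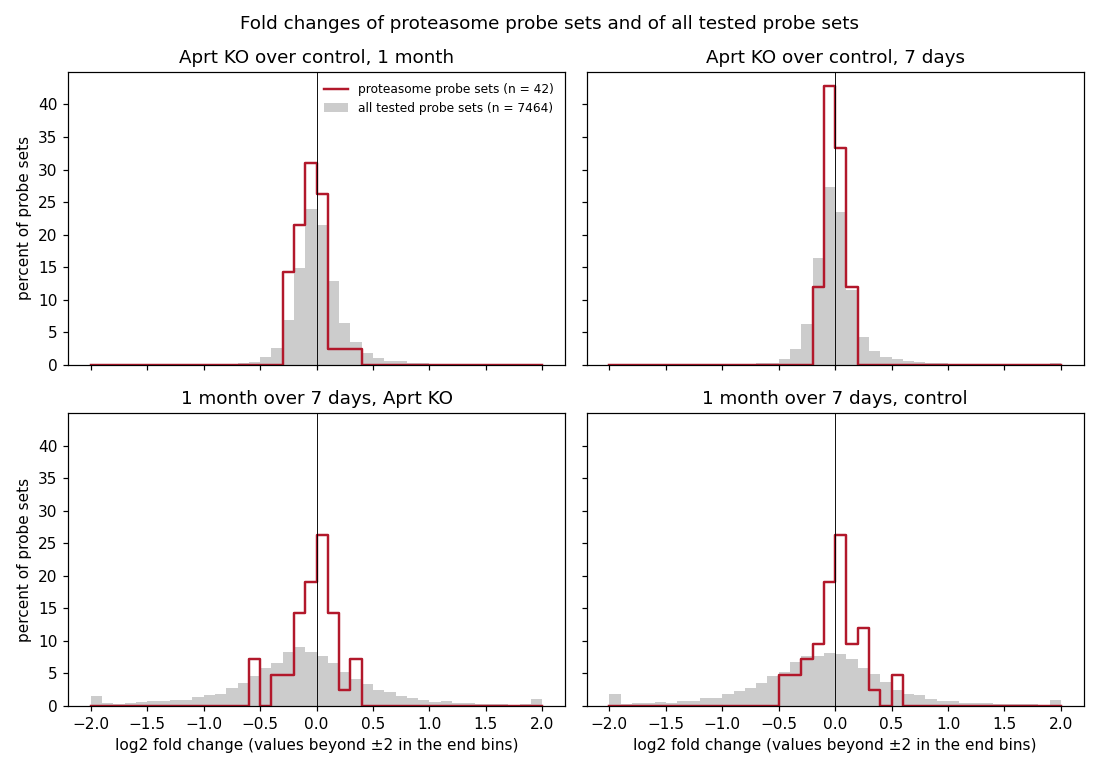
Histograms show the log2 fold changes of the 42 proteasome probe sets (line) and of all 7464 tested probe sets (grey), as the percent of each set per bin, for Aprt KO over control (top) and 1 month over 7 days (bottom). The age effects of the proteasome probe sets, from -0.59 to 0.58, occupy the middle of a distribution over all tested probe sets that reaches beyond ±2.

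Psmb5, the subunit with chymotrypsin-like activity, was the 1 core subunit called higher at 1 month. Its 250 bases before the transcript start hold a match to TGACNNNGC, the core of the antioxidant response element that Nfe2l1 and Nfe2l2 bind. The lines that follow hold the 80 bases before the start of Psmb5 and, for comparison, of the other members called in controls that have a promoter in the RefSeq table (GRCm38.p6), 5′ to 3′ on the strand of the gene. Capitals mark matches, and the one in Psmb5 runs from position -47 to -39 counted back from the start. Psmb5 lies at chr14:54617996-54618075 (minus strand), Psme4 at chr11:30771695-30771774 (plus), Psma5 at chr3:108256846-108256925 (plus), Psme1 at chr14:55578414-55578493 (plus) and Psme3ip1 at chr8:94601727-94601806 (minus).
Psmb5: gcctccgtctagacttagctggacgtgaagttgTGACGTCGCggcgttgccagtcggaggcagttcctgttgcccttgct
Psme4: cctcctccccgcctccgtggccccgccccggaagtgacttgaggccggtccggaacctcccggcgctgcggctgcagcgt
Psma5: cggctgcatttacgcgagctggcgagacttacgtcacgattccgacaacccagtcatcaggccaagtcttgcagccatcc
Psme1: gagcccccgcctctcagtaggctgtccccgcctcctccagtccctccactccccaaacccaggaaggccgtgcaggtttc
Psme3ip1: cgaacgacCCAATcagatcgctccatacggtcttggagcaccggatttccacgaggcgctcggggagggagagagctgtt

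In Psme3ip1 the capitals mark CCAAT, the box that the factor NF-Y binds, from -72 to -68, and a second CCAAT lies at -167 to -163. The table holds another window for Psme3ip1, with no match. Psme4, Psma5 and Psme1 had no match of TGACNNNGC and none of CCAAT in their 250 bases on either strand. Of 36 promoter windows found for 33 member genes, 5 held TGACNNNGC (13.9%, against 10.2% of 32851 windows of all genes). They belonged to Psmb5, Psmb6, Psmc6, Psmd9 and Psmd12, of which only Psmb5 was called in any comparison. CCAAT was in 14 of the 36 (38.9%, against 33.8% of all). A match describes the letters only and shows no binding.

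The brighter Psmb5 probe set read 2761, 3108 and 3186 in 1-month arrays labelled Aprt KO, against 1997 to 2467 (median 2288) in 7-day ones. In controls it read 3077, 3463 and 3932 at 1 month, against 1779 to 3068 (median 2227) at 7 days. In both genotypes every 1-month array was above every 7-day array, with a log2 fold change of 0.36 (SE 0.13, limma adjusted p 0.0411) in mice labelled Aprt KO and 0.55 (SE 0.13, adjusted p 0.00317) in controls. The rise in mice labelled Aprt KO lost its call in 15 of 35 alternative settings, with the litter pair as a random block among them (adjusted p 0.0619), and the rise in controls in 1 of 35. Leaving out any single 1-month array labelled Aprt KO ended the call in those mice (adjusted p 0.0756 to 0.271). The 1 setting that ended the call in controls averaged the brighter Psmb5 probe set with the dimmer one and gave 0.29 (limma adjusted p 0.0885). On its own, the dimmer probe set read 362.0, 376.6 and 210.6 in 1-month arrays labelled Aprt KO, 288.7, 446.1 and 194.6 in 1-month controls, 212.4 to 324.7 (median 287.2) in 7-day arrays labelled Aprt KO and 240.3 to 421.2 (median 268.4) in 7-day controls. Its groups overlapped, and its log2 fold changes were 0.18 (SE 0.24) in mice labelled Aprt KO and 0.03 (SE 0.24) in controls.

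Psma5, a subunit of the alpha ring, fell at 1 month in both genotypes. It read 1309, 1126 and 1430 in 1-month arrays labelled Aprt KO, against 1639 to 2249 (median 1816) in 7-day ones. In controls it read 1157, 1035 and 1626 at 1 month, against 1427 to 2244 (median 1730) at 7 days. The ages were separated in mice labelled Aprt KO and overlapped in controls. The log2 fold change was -0.53 (SE 0.16, limma adjusted p 0.0136) in mice labelled Aprt KO and -0.47 (SE 0.16, adjusted p 0.0249) in controls. With median centring the values were -0.30 and -0.25, and neither was called. The call was also lost in mice labelled Aprt KO without 1-month Aprt KO 1 or 2 (limma adjusted p 0.0692 and 0.0757), and in controls without 1-month control 1 or 2 (adjusted p 0.26 and 0.143). The other 6 alpha subunits had log2 fold changes from -0.18 to 0.14 in mice labelled Aprt KO and from -0.03 to 0.10 in controls, and none was called.

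In the 19S cap, Psmd7 fell at 1 month in mice labelled Aprt KO. Psmd7 is the partner of Psmd14, the deubiquitinase that removes ubiquitin chains from substrates. It read 1015, 1218 and 952.1 in 1-month arrays labelled Aprt KO, against 1382 to 1774 (median 1490) in 7-day ones, and the ages were separated. In controls it read 1242, 1181 and 1242 at 1 month, against 1176 to 1680 (median 1458) at 7 days, and these overlapped. The log2 fold change was -0.52 (SE 0.12, limma adjusted p 0.00217) in mice labelled Aprt KO and -0.26 (SE 0.12, adjusted p 0.101) in controls. In mice labelled Aprt KO the value was -0.29 with median centring (adjusted p 0.0925) and -0.47 without 1-month Aprt KO 1 (adjusted p 0.0669), and neither was called. The difference between the genotypes did not pass the interaction test (-0.26, SE 0.17, limma adjusted p 1.0). Psmd14 itself had -0.28 (SE 0.16, limma adjusted p 0.172) in mice labelled Aprt KO and -0.08 (SE 0.16, adjusted p 0.735) in controls. None of the 7 probe sets of base ATPases was called in either genotype.

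Among the activators, Psme4 and Psme1 moved in opposite directions in controls. Psme4, an activator that caps the core without an ATPase ring, read 974.1, 1191 and 1733 in 1-month arrays labelled Aprt KO, 894.5, 1161 and 1960 in 1-month controls, 753.1 to 1072 (median 872.7) in 7-day arrays labelled Aprt KO and 523.2 to 1062 (median 833.7) in 7-day controls. At each age the genotypes overlapped, and in each genotype the ages did. For age it differed by a log2 fold change of 0.38 (SE 0.20, limma adjusted p 0.151) in mice labelled Aprt KO and 0.58 (SE 0.20, adjusted p 0.0304) in controls. Without 1-month control 3, which holds the value 1960, the effect in controls was 0.38 (SE 0.21, adjusted p 0.18), and the call was lost as well without 1-month control 1 (adjusted p 0.124) or 7-day control 1 or 5 (adjusted p 0.0607 and 0.0619). Psme1, a subunit of the interferon-inducible PA28 activator, read 1623, 1248 and 1442 in 1-month arrays labelled Aprt KO, against 1434 to 1762 (median 1616) in 7-day ones. In controls it read 1556, 1081 and 1194 at 1 month, against 1515 to 2062 (median 1750) at 7 days. The ages overlapped in both genotypes, with a log2 fold change of -0.10 (SE 0.11, limma adjusted p 0.552) in mice labelled Aprt KO and -0.41 (SE 0.11, adjusted p 0.00841) in controls, where the highest value, 2062, was again that of 7-day control 3. Without that array the fall in controls was still called. With median centring it was -0.19 (adjusted p 0.279). The interaction value of Psme1 was 0.31 (SE 0.16, limma adjusted p 1.0).

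Psme3ip1, the binding partner of Psme3, had the largest fall with age among the members in mice labelled Aprt KO. It read 584.6, 489.8 and 599.1 in 1-month arrays labelled Aprt KO, against 766.4 to 914.7 (median 908.0) in 7-day ones, with no overlap. In controls it read 633.7, 477.9 and 668.4 at 1 month, against 665.6 to 839.0 (median 768.5) at 7 days, and the groups overlapped narrowly. The log2 fold change was -0.59 (SE 0.12, limma adjusted p 0.000805) in mice labelled Aprt KO and -0.33 (SE 0.12, adjusted p 0.0375) in controls. In controls the call was lost in 14 of 35 alternative settings, with an adjusted p of 0.0587 under the random litter block. Of these, 7 left out a single array, and without 1-month control 2 the value was -0.21 (adjusted p 0.201). With median centring it was -0.36 in mice labelled Aprt KO (adjusted p 0.0443) and -0.11 in controls (adjusted p 0.543). Fully separated ages were seen for 4 members in mice labelled Aprt KO (background 33.7%) and for 1 in controls (background 30.4%).

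**Figure D5:**
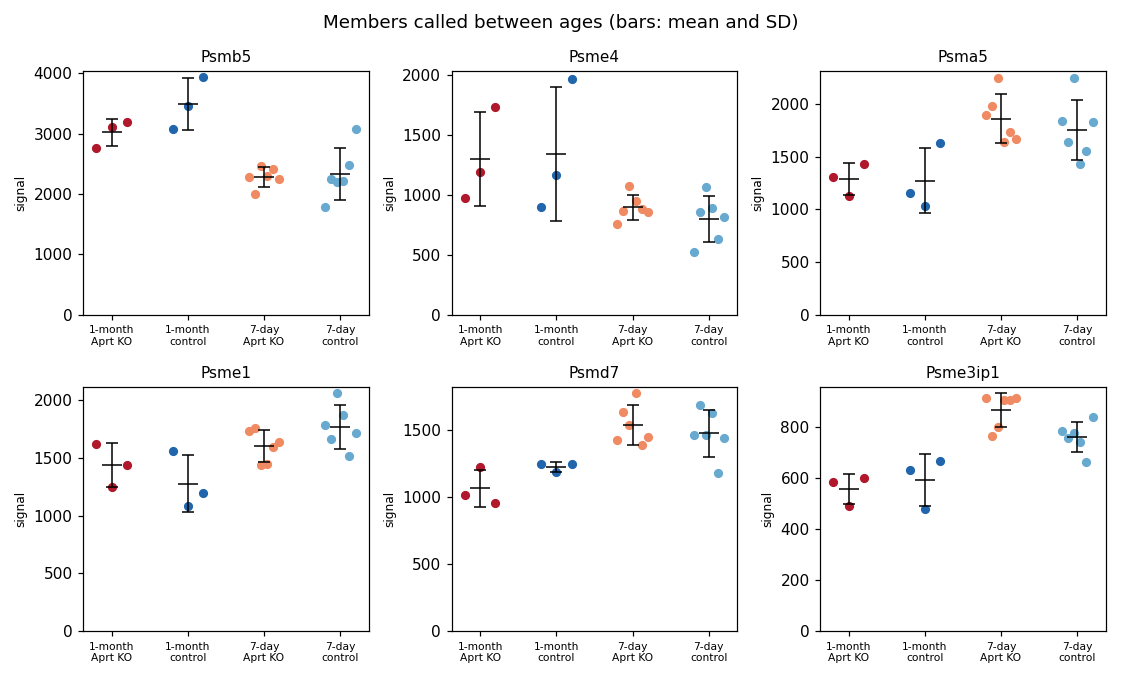
Points show the signal of each array for the 6 members called between the ages in at least 1 genotype, by group, with bars for the mean and SD. Psmb5 (brighter probe set) is higher at 1 month, Psme4 has single high arrays at 1733 and 1960, and Psma5, Psme1, Psmd7 and Psme3ip1 have lower means at 1 month, with the ages overlapping in controls for all 4 and in Aprt KO for Psme1.

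The age effects of the members were set side by side in the genotypes, which share no array. Across the 42 probe sets the effects in mice labelled Aprt KO and in controls had a Pearson correlation of 0.74, and 32 of 42 (76.2%) had the same sign, against 0.9 and 86.3% over all 7464. Probe sets are not independent, and littermates and the age contrast are common to both sets of arrays.

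Age effects of a gene's tested probe sets spread widely in controls for Psmd11 and lay close together for Psmc3. Psmd11, a lid subunit that helps hold the cap together, had 3 tested probe sets. Their age effects in mice labelled Aprt KO were -0.10, -0.16 and -0.31, and in controls, in the same order of probe sets, 0.37, 0.10 and -0.31. None was called, and in controls the sign differed between them. The 3 probe sets of Psmc3, an ATPase, ran from -0.06 to 0.08 in mice labelled Aprt KO and from 0.02 to 0.12 in controls.

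Several members varied between litters. Psme3, the nuclear PA28 activator, had the widest spread over the 18 arrays, with an SD of 0.49 on the log2 scale. It read 544.8 on 1-month Aprt KO 3 and 486.7 on its littermate control 3, where the other 1-month arrays read 987.9 and 1213 (Aprt KO) and 1066 and 1250 (control). At 7 days it read 451.0 on Aprt KO 3 and 456.4 on its littermate control 3, where the others read 668.3 to 1180 (Aprt KO) and 771.7 to 1201 (control). The low values came in littermate pairs that hold both genotypes. The labels do not say whether littermates were also processed together, so litter and processing cannot be told apart.

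Psmd4, a ubiquitin receptor of the cap, had its highest signals in litter pair 4, at 2603 in Aprt KO 4 and 2438 in control 4. The other 7-day arrays read 1253 to 2026 (Aprt KO) and 1093 to 1824 (control). At 1 month it read 1267, 1418 and 1532 in arrays labelled Aprt KO, against 1411, 1619 and 1554 in controls, which overlapped. Pair 4 is also the pair with the low maximum signals. Psmd9 and Psmd10 are chaperones that assist assembly of the 19S base. Psmd9 read 674.9, 581.3 and 554.3 in 1-month arrays labelled Aprt KO, 702.6, 581.8 and 626.0 in 1-month controls, 388.3 to 860.5 (median 493.8) in 7-day arrays labelled Aprt KO and 484.6 to 667.9 (median 543.4) in 7-day controls. The highest value was again in pair 4. Psmd10 read 252.2, 203.5 and 383.4 in 1-month arrays labelled Aprt KO, 257.1, 234.7 and 438.3 in 1-month controls, 165.2 to 374.3 (median 244.0) in 7-day arrays labelled Aprt KO and 218.6 to 423.9 (median 257.7) in 7-day controls. In all 4 groups its highest array was replicate 3, so that litter pairs 3 and 9 stood above the others.

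A high signal for many subunits together marked a few arrays. 1-month control 3 was the highest of the 6 arrays at its age for 25 of the 42 proteasome probe sets (59.5%), while it was highest for 21.5% of all tested probe sets. Its members stood a median of 0.20 above their means over all arrays, while all tested probe sets stood at -0.12. Without it, the members' median at 1 month was 0.06 for Aprt KO over control and that for age in controls was -0.06. In litter pair 3 at 7 days, Aprt KO 3 and control 3 were each the highest of 12 arrays for 10 of 42 members (23.8%), against 10.3% and 13.4% of all tested probe sets. The cause of these shared highs was not tested.

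Otherwise the proteasome probe sets were steadier than most. Their SD over all 18 arrays had a median of 0.24 on the log2 scale, against 0.34 over all tested probe sets, and 37 of 42 lay below that value. Within groups the medians were closer, at 0.23 and 0.26, and 29 of 42 lay below. Psmb1, a structural beta subunit, was the steadiest on 1 of its probe sets, with an SD of 0.09 and signals from 1966 to 2550. Its other tested probe set ranged from 1412 to 3346. The ATPase probe sets of Psmc3 (the steadiest of 3), Psmc5 and Psmc1 had SDs of 0.11, 0.13 and 0.13, and the alpha subunit Psma4 had 0.12. Spread on this scale also depends on signal, and the sets were not matched on it.

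Genes that work with the proteasome were counted from lists, to be read against the 14.0% of all tested probe sets that rose and 23.8% that fell with age in mice labelled Aprt KO, and the 13.7% and 24.6% in controls. The 5 dedicated assembly chaperones (6 probe sets) had 0 calls in either genotype comparison (background 0.201% at 1 month and 2.73% at 7 days). With age they had 1 rise in mice labelled Aprt KO (Psmg1, which starts the alpha ring, 0.35, limma adjusted p 0.0308) and 0 calls in controls. Of 15 probe sets for proteasome-bound factors, 0 rose and 5 fell with age in each genotype, with medians of -0.27 in mice labelled Aprt KO and -0.36 in controls, against -0.12 and -0.11 over all tested probe sets. Zfand5, which binds the 26S particle, fell by 0.89 and 0.85, and both probe sets of Akirin2, which brings proteasomes into the nucleus, fell by 0.90 and 0.49 and by 0.62 and 0.66. Sem1, a small lid subunit outside the prefix rule, fell by 0.39 and 0.44, in each case with mice labelled Aprt KO before controls. With median centring 2 of the 15 fell and 0 rose in mice labelled Aprt KO (background 13.5% and 23.2%). In controls 2 fell and 1 rose (background 14.6% and 22.7%).

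Among 12 probe sets of transcription factors for proteasome genes, 5 fell with age in mice labelled Aprt KO (background 23.8%) and 4 in controls (background 24.6%), and 0 rose. They included Nfe2l2 (-0.48 and -0.60), Nfya (-0.74 and -0.50) and Nfyb (-0.77 and -0.90). Nfe2l1, the factor best known for restoring proteasome genes, was not called on either of its probe sets (0.08 and 0.19 in mice labelled Aprt KO, -0.18 and -0.04 in controls). With median centring 4 fell and 1 rose in mice labelled Aprt KO (background 13.5% and 23.2%), and 2 fell and 1 rose in controls (background 14.6% and 22.7%). The list's genotype calls were the 2 probe sets of Stat3, a factor of cytokine signalling. These rose at 7 days by 0.58 and 0.86 (limma adjusted p 0.00101 and 0.00052, background 2.25% called higher). At 1 month their values were -0.01 and 0.16, and the difference between the ages did not pass the test (limma adjusted p 0.222 and 0.401).

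Upstream of the proteasome, 20 probe sets covered ubiquitin and its activating and conjugating enzymes. With age, 2 rose and 2 fell in mice labelled Aprt KO (background 14.0% and 23.8%), and 2 rose and 6 fell in controls (background 13.7% and 24.6%). The conjugating enzymes Ube2b (0.57 and 0.59) and Cdc34 (0.47 and 0.50) rose in both, and Ube2n (-0.45 and -0.32) fell in both. Of 16 probe sets for cullin ligases, 3 fell in mice labelled Aprt KO and 2 in controls, among them Cul4a (-0.37 and -0.51) and 1 of 3 Eloc probe sets (-0.37 and -0.48), and 0 rose. Of 13 for the Vcp segregase, which extracts ubiquitinated proteins, Vcp fell in mice labelled Aprt KO (-0.47) and Derl2 rose in controls (0.48). None of these 3 lists held a genotype call at either age, where 0.201% of all tested probe sets were called at 1 month and 2.73% at 7 days.

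The remaining 8 probe sets were too dim to be tested, with mean signals from 3.6 to 74.3. For Psmc4, Psmd2 and Psmc3ip they were the genes' sole probe sets, and nothing is reported for those genes. The others belong to Psmb1, Psmb4, Psmc5 and Psme1, which each had a brighter probe set.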

How the data were processed

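The deposited values are linear intensities of 12488 probe sets on each of 18 arrays. Per the submitters' processing notes, the authors used GCOS and MAS5, whose versions are not stated there. RNA was labelled with biotin, per the labels' protocols. The 2% trimmed mean was 500.2 to 500.4 on each array, and median signals ran from 160.1 to 216.4. The signals were used as deposited.

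Probe sets were named from the platform annotation where it gave 1 symbol (10833 probe sets; 396 had several, 1193 none, and 66 were controls). The 7464 non-control probe sets with a mean signal at or above the 40th percentile (118.6) were tested as log2(signal + 29), 29 being the 20th percentile of all values. limma 3.58.1 (R 4.3.3; lmFit, eBayes with an intensity trend) fitted all 18 arrays by group, with sex as a further term at each age (12 residual degrees of freedom). Tests were two-sided, with Benjamini-Hochberg adjustment over all tested probe sets. The scripts were tested on simulated data. Figures used matplotlib 3.10.9.

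Litter pairs come from the labels, which name littermates. Littermates deviated from their group means together, with correlations from 0.235 to 0.683 over the 9 pairs. These deviations include any effect of sex, which the mice of a pair share. With sex also fitted, the correlations were 0.199 to 0.553 at 7 days and 0.451 and 0.402 for pairs 8 and 9. Pair 7 holds the only females of 1 month, so the sex term fixes its correlation at -1. The alternatives changed pseudocount, filter, scaling, probe set choice, litter block, sex term, variance model and arrays.

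The members and lists were chosen with earlier results of these data known. Values per array are given for up to 2 rises and 2 falls called per class and comparison, for Psmb5, Psmb6, Psmb7, Psme1, Psme3, Psme4, Psmd4, Psmd9 and Psmd10, and once for Psmb8 to Psmb10. Psmd1, Psmc5, Psmd11, Psmc3, Psmb1, Psma4, Psmc1 and Psmd14 were added after their values were seen.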

Additional observations from a re-analysis of the deposited data

Results flagged for a closer look

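Among 90 combinations of a 7-day group with a probe set of the proteasome or of its inducible subunits, 10 had a single array far from the other 5. Far means that the gap to the nearest array exceeded 0.625 of the group's range. Chance gives about 1 in 20 for independent combinations. These combinations share arrays and litters and are not independent, so the count was not tested against that share. The following gives each such array with the nearest of the others.

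Litter pair 3 gave 5 of the 6 flags among members. Psma1 read 769.8 on 7-day Aprt KO 3 (next 571.8) and 835.7 on 7-day control 3 (next 624.5). Psma7 read 2496 on 7-day Aprt KO 3 (next 1908) and 2417 on 7-day control 3 (next 1876). Psmd10 read 423.9 on 7-day control 3 (next 276.5).

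The inducible subunits stood out on the same control array. Psmb8 read 2727 on 7-day control 3 (next 356.5), Psmb9 read 1052 (next 108.0) and Psmb10 read 1337 (next 622.1). Psmb8 also read 581.2 on 7-day Aprt KO 6 (next 536.1), a small gap in a tight group. Psmd9 read 860.5 on 7-day Aprt KO 4 (next 528.7), an array of the litter pair with low maximum signals.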

How the results depend on the processing

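The counts of proteasome probe sets called by genotype were 0 in all 36 alternatives at 1 month and all 36 at 7 days, and 0 in all 35 for the interaction, where the litter pair as a replicate block, fixed or random, also gave 0. The fixed block called 1.22%, 7.56% and 1.37% of all tested probe sets, and the random block 1.78%, 7.93% and 2.18%. With unadjusted p under 0.05 the members' counts reached at most 4, 2 and 4 under any alternative. The share of all tested probe sets then reached at most 11.3%, 19.7% and 12.2%. For age, the random replicate block left 3 calls in mice labelled Aprt KO (background 35.3%) and 4 in controls (background 35.4%). The count of 4 in mice labelled Aprt KO (background 37.8%) became 7 with median centring (background 36.7%). It became 0 without the 4 arrays on which Aprt went against the label (background 19.1%). Leaving out 1 array gave 1 to 5, with 1 without 1-month Aprt KO 1 (background 21.8%) and 2 without 1-month Aprt KO 2 (background 33.4%). The count of 5 in controls (background 38.3%) became 9 with median centring (background 37.4%), 1 when controls were fitted alone (background 29.6%) and 2 without those 4 arrays (background 32.2%). Leaving out 1 array gave 2 to 5, with 2 without 1-month control 1 (background 22.9%). The count was 3 without 7-day control 1 (background 36.6%) or without 1-month control 2 (background 33.6%). The called age effects kept their sign in all 35 alternatives each. The Psmb8 effect at 7 days, 0.29, was -0.06 without the 4 arrays, a setting that keeps 7-day control 3. It was 0.82 without 7-day control 3, an array singled out after its values were seen. The removal of litter pair 4 was chosen after seeing the data and left 4 age calls in each genotype (background 37.6% in mice labelled Aprt KO and 37.9% in controls). With 3 arrays per group at 1 month, the genotype interval lay within ±0.5 on the log2 scale for 25 of 42 probe sets (38.5% of all tested). For the other members, effects above 0.5 in size lie within the interval.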

Other observations

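The dimmer probe set of Psmc5 had a mean signal of 22.2 and was not tested with the others. Without the filter on low values it was called with age in mice labelled Aprt KO, with a log2 fold change of 0.75 (SE 0.18, limma adjusted p 0.00428), and had -0.01 in controls (adjusted p 0.983). Its 7-day value for Aprt KO over control was -0.49 (SE 0.14, limma adjusted p 0.109). Its interaction value was 0.76 (SE 0.24, limma adjusted p 0.501), and neither was called. The probe set read 33.8, 36.3 and 36.2 in 1-month arrays labelled Aprt KO, against 6.2 to 15.2 in 7-day ones. In controls it read 28.7, 33.0 and 14.4 at 1 month, against 10.7 to 44.0 (median 24.7) at 7 days. The 7-day signals lie below the pseudocount for the arrays labelled Aprt KO. The brighter probe set of the gene had 0.00 (SE 0.11) with age in mice labelled Aprt KO.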
